A study of Caenorhabditis elegans with 10 samples.

Results

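Embryos carrying the n2018 allele of lin-45, the worm's RAF kinase gene, were set against embryos of N2, the wild-type laboratory strain of Caenorhabditis elegans, both kept on 50 mM NaCl, the lower salt level of the study. The comparison covered every gene of the deposited count table in the 4 libraries that the labels assign to these groups, 2 of lin-45 and 2 of N2, out of 10 libraries in all. The table lists 45461 genes, of which 14802 reached 1 CPM (counts scaled to the library's total) in at least 2 of the 10 libraries and were tested. In both groups the parents had also grown on 50 mM NaCl, and the embryos were taken 3 hours after egg preparation. The other 6 libraries were of lin-45 and of N2 embryos on 500 mM NaCl from parents on 50 mM, and of N2 embryos on 500 mM from parents on 300 mM. Whole embryos were lysed with beads, their RNA was treated with DNase and selected for poly-A tails, and TruSeq libraries were read as pairs on a NextSeq. The labels name a single mutant allele, so that effects of the allele and of any other genetic difference between the strains cannot be told apart.

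RAF kinases stand in the middle of the RAS to ERK cascade. In the worm, the EGF-like ligand LIN-3 activates the receptor LET-23, the exchange factor SOS-1 loads the RAS protein LET-60 with GTP, LET-60 activates LIN-45, and LIN-45 starts the kinase relay through MEK-2 to the ERK kinase MPK-1. MPK-1 then acts on transcription factors such as LIN-1 and LIN-31, and the cascade is best known for inducing the vulva, for specifying the excretory duct cell and for germ cell progression through meiosis. Salt tolerance in the worm rests on glycerol, which is made with the glycerol-3-phosphate dehydrogenases GPDH-1 and GPDH-2.

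The lin-45 libraries held 23498074 and 30356117 counts and the N2 libraries 22138098 and 30985335 counts, within the 22138098 to 34585489 counts of all 10 libraries. Values are given in CPM after TMM scaling, replicate 1 before replicate 2; they are not divided by transcript length, so the levels of different genes were not compared. Log2 fold changes are lin-45 over N2, with the standard error (SE) of the fit. A gene was called higher or lower where its Benjamini-Hochberg adjusted p was under 0.05 in edgeR's quasi-likelihood test, which shared one estimate of the spread over all 10 libraries. Variation between replicates, as a coefficient over all genes, came to 13.1%. No label states that the replicates were grown as separate cultures. The p-values therefore rest on a spread between libraries that may be technical. With 2 libraries a group, p = 0.333 is the smallest that an exact permutation test can give. In RNA of whole embryos, fewer cells of a type and less RNA per cell cannot be told apart. Whether reads were counted by strand is not given in the sources used here, so overlapping genes are named where they could share reads.

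In lin-45 embryos 8038 of 14802 genes (54.3%) passed the threshold. Of these, 4921 (33.2% of all tested genes) rose and 3117 (21.1%) fell. A change of at least 2-fold was reached by 2559 genes (17.3%), 1159 higher (7.83%) and 1400 lower (9.46%). The median log2 fold change of all tested genes was 0.16 with TMM scaling, and the balance of the calls moved with the scaling. The share of calls that were higher was 61.2% with TMM, 56.4% with RLE factors, 51.3% with upper-quartile factors, 50.0% when only the 4 libraries on 50 mM NaCl were fitted, and 46.2% with no filter on low counts. Small differences of either sign therefore depend on the scaling, while the count of genes past 2-fold stayed within 1.5 times under every alternative run. Both lin-45 libraries lay above both N2 libraries for 50.8% of the tested genes and below both for 32.3%.

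**Figure D1:**
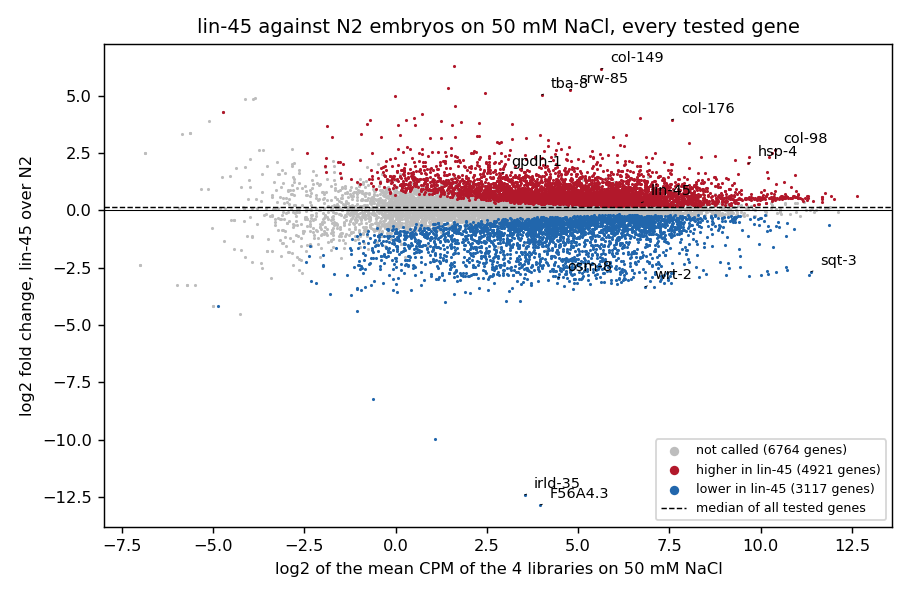
Log2 fold change of lin-45 over N2 embryos on 50 mM NaCl (vertical axis) against the log2 of the mean CPM of the 4 libraries (horizontal axis), one point per tested gene, leaving out 7 genes without a count in these libraries. Red points are the 4921 genes called higher, blue points the 3117 called lower and grey points those not called; the dashed line is the median of 0.16, and F56A4.3 and irld-35 lie far below the rest.

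The replicate libraries differed along the same genes as the strains. The root mean square log2 difference between replicates was 0.424 in lin-45 embryos and 0.325 in N2 embryos, and 694 genes in lin-45 embryos and 222 in N2 embryos stood at least 2-fold apart. Of the genes called lower, 87.7% were lower in lin-45 replicate 1 than in lin-45 replicate 2, and of the genes called higher, 77.1% were higher in replicate 1. In N2 embryos only 18.3% of the genes called lower were lower in replicate 1, and 29.8% of those called higher were higher in replicate 1. Replicate 1 of each strain therefore stood further from the other strain than replicate 2. Without lin-45 replicate 1, 5506 genes passed, and without N2 replicate 1, 5188 passed. The part of this replicate difference in the gene groups below was not tested.

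The targeted gene was measured first. The lin-45 transcript (Y73B6A.5; chromosome IV, 6742526 to 6748413, minus strand, ce10) had 118 and 119 CPM in lin-45 embryos, against 93.0 and 95.0 CPM in N2 embryos (log2 fold change 0.33 ± 0.09, adjusted p = 0.0123). Both lin-45 libraries lay above both N2 libraries. The call was lost without N2 replicate 1 (adjusted p = 0.0761), without N2 replicate 2 (adjusted p = 0.051) and with no filter on low counts (log2 fold change 0.20, adjusted p = 0.134). The labels do not say what n2018 changes in the gene, so the transcript's level neither checks nor contradicts the genotype.

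The kinase genes below lin-45 were not called, while 3 RAS-inactivating genes and the FGF receptor gene were lower. Of 38 tested genes of the RAS to ERK list, 9 (23.7%) rose and 11 (28.9%) fell, with a median log2 fold change of 0.00. Over all tested genes the shares were 33.2% and 21.1%. The list's counts moved to between 4 and 9 higher and between 9 and 18 lower under the alternatives. At the top of the pathway, the EGF-like ligand gene lin-3, which overlaps ttr-16, had 38.9 and 37.6 CPM in lin-45 embryos, against 27.1 and 30.6 CPM in N2 embryos (log2 fold change 0.40 ± 0.12, adjusted p = 0.0178), a call lost with no filter on low counts (adjusted p = 0.115), without N2 replicate 1 (adjusted p = 0.127) and without lin-45 replicate 1 (adjusted p = 0.0759). Its receptor gene let-23 had 38.0 and 42.1 CPM in lin-45 embryos, against 42.7 and 45.1 CPM in N2 embryos (log2 fold change -0.13 ± 0.09, adjusted p = 0.268), and it was called lower in the fits of 4 and of 8 libraries (adjusted p = 0.0379 and 0.0175). The FGF receptor gene egl-15 had 46.3 and 48.1 CPM in lin-45 embryos, against 75.4 and 69.3 CPM in N2 embryos (log2 fold change -0.62 ± 0.12, adjusted p = 0.00275).

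The exchange factor gene sos-1 had 58.5 and 66.2 CPM in lin-45 embryos, against 87.9 and 79.8 CPM in N2 embryos (log2 fold change -0.43 ± 0.08, adjusted p = 0.00311). The RAS gene let-60 had 191 and 171 CPM in lin-45 embryos, against 201 and 206 CPM in N2 embryos (log2 fold change -0.17 ± 0.08, adjusted p = 0.0854), and it was called lower under RLE and upper-quartile factors, DESeq2, no filter, and fits of 4 or 8 libraries. Next in the relay, mek-2, which overlaps col-48 and Y54E10BL.3, had 100.2 and 92.9 CPM in lin-45 embryos, against 85.1 and 86.7 CPM in N2 embryos (log2 fold change 0.17 ± 0.09, adjusted p = 0.127). For mek-2 the libraries of the strains did not overlap, and for let-60 both lin-45 libraries were the lower. The ERK gene mpk-1 had 168 and 172 CPM in lin-45 embryos, against 179 and 178 CPM in N2 embryos (log2 fold change -0.07 ± 0.10, adjusted p = 0.562), called lower only in the fits of 4 and of 8 libraries. All genes for GTPase-activating proteins of RAS on the list fell. The gene gap-1 had 20.8 and 22.3 CPM in lin-45 embryos, against 30.8 and 34.5 CPM in N2 embryos (log2 fold change -0.60 ± 0.12, adjusted p = 0.00373). Another, gap-2, had 168 and 177 CPM in lin-45 embryos, against 243 and 230.3 CPM in N2 embryos (log2 fold change -0.45 ± 0.09, adjusted p = 0.00246). The gene gap-3 had 15.9 and 20.0 CPM in lin-45 embryos, against 34.1 and 31.7 CPM in N2 embryos (log2 fold change -0.87 ± 0.12, adjusted p = 0.000557). In each of the 3 the lin-45 libraries lay below the N2 libraries.

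Among other regulators, dep-1, which encodes a receptor phosphatase that opposes LET-23, had 129 and 144 CPM in lin-45 embryos, against 244 and 220.1 CPM in N2 embryos (log2 fold change -0.77 ± 0.09, adjusted p = 0.000251). The kinase gene ark-1, another inhibitor of LET-23 signalling, had 82.6 and 91.2 CPM in lin-45 embryos, against 134 and 128 CPM in N2 embryos (log2 fold change -0.59 ± 0.10, adjusted p = 0.00128). In contrast, sli-1, which encodes the Cbl-like inhibitor of LET-23, had 79.8 and 82.1 CPM in lin-45 embryos, against 58.2 and 58.4 CPM in N2 embryos (log2 fold change 0.47 ± 0.07, adjusted p = 0.000672). So dep-1 and ark-1 fell and sli-1 rose, each with the strains' libraries apart. Downstream, lin-31, a forkhead target of MPK-1, had 3.97 and 3.64 CPM in lin-45 embryos, against 7.40 and 6.0 CPM in N2 embryos (log2 fold change -0.81 ± 0.18, adjusted p = 0.00499). The list also holds channel and pump genes: the calcium channel gene egl-19 had 206 and 229 CPM in lin-45 embryos, against 339 and 336 CPM in N2 embryos (log2 fold change -0.63 ± 0.10, adjusted p = 0.0012). The calcium pump gene sca-1 had 2173 and 1889 CPM in lin-45 embryos, against 1267 and 1330.4 CPM in N2 embryos (log2 fold change 0.65 ± 0.08, adjusted p = 0.000335). Of these, egl-19 and lin-31 fell and sca-1 rose.

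On low salt the glycerol synthesis genes were higher in lin-45 embryos, while the mucin-like gene osm-8, inositol transporter genes and the aquaporin gene aqp-2 were lower. The gene gpdh-1 (F47G4.3; chromosome I, 14075823 to 14078202, ce10), which overlaps gadr-6, had 13.2 and 9.62 CPM in lin-45 embryos, against 4.05 and 3.34 CPM in N2 embryos (log2 fold change 1.62 ± 0.18, adjusted p = 0.000231), 3.08-fold higher. Its paralogue gpdh-2 had 317 and 268 CPM in lin-45 embryos, against 125 and 137 CPM in N2 embryos (log2 fold change 1.16 ± 0.11, adjusted p = 0.000124), 2.23-fold higher. Both genes' lin-45 libraries lay above their N2 libraries, and both calls were kept under every alternative run. On 500 mM NaCl gpdh-1 had 109 and 107 CPM in lin-45 embryos, against 187 and 180.0 CPM in N2 embryos (log2 fold change -0.77 ± 0.15, adjusted p = 0.0179), and gpdh-2 had 363 and 332 CPM in lin-45 embryos, against 318 and 352 CPM in N2 embryos (log2 fold change 0.05 ± 0.10, adjusted p = 0.81). On high salt gpdh-1 thus was lower in lin-45 embryos and gpdh-2 was not called. The phosphatase gene pgph-2, named F44E7.2 in the file, a phosphoglycolate phosphatase homologue, had 14.4 and 14.1 CPM in lin-45 embryos, against 4.85 and 7.0 CPM in N2 embryos (log2 fold change 1.25 ± 0.20, adjusted p = 0.00118).

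Of the 35 tested glycerol and osmolyte genes, 14 (40.0%) rose and 8 (22.9%) fell, with a median of 0.24 against 0.16 over all tested genes. The shares over all tested genes were 33.2% and 21.1%. With upper-quartile factors 10 members of the list rose and 10 fell. The gene osm-8 (chromosome II, 7604144 to 7605316, minus strand, ce10) encodes a mucin-like secreted protein whose loss in worms raises gpdh-1 expression without salt stress. It overlaps npp-21 and had 2.08 and 7.63 CPM in lin-45 embryos, against 42.9 and 34.5 CPM in N2 embryos (log2 fold change -2.95 ± 0.42, adjusted p = 0.000574). The patched-related gene ptr-23, a genetic partner of osm-8, had 117 and 137 CPM in lin-45 embryos, against 234 and 224 CPM in N2 embryos (log2 fold change -0.85 ± 0.14, adjusted p = 0.00104). The gene osm-11, which encodes a secreted Notch co-ligand whose loss gives osmotic resistance, had 334 and 292 CPM in lin-45 embryos, against 199 and 223 CPM in N2 embryos (log2 fold change 0.57 ± 0.10, adjusted p = 0.00154). Thus osm-8 and ptr-23 fell and osm-11 rose, and for osm-8 lin-45 replicate 1 was well below lin-45 replicate 2.

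Transporters moved in both directions. The inositol transporter gene hmit-1.1 had 15.1 and 13.4 CPM in lin-45 embryos, against 27.7 and 28.9 CPM in N2 embryos (log2 fold change -0.99 ± 0.12, adjusted p = 0.000261). The gene hmit-1.2 had 5.49 and 8.90 CPM in lin-45 embryos, against 17.6 and 17.5 CPM in N2 embryos (log2 fold change -1.27 ± 0.21, adjusted p = 0.00124). Both fell on low salt; on 500 mM NaCl neither was called (log2 fold changes 0.37 and 0.59). The aquaporin gene aqp-7 had 357 and 336 CPM in lin-45 embryos, against 219 and 229 CPM in N2 embryos (log2 fold change 0.63 ± 0.08, adjusted p = 0.000278), whereas aqp-2 had 1000.3 and 1098 CPM in lin-45 embryos, against 1748 and 1592 CPM in N2 embryos (log2 fold change -0.67 ± 0.09, adjusted p = 0.000515). Aquaporin genes therefore split, with aqp-7 higher and aqp-2 lower. The trehalase gene tre-2 rose (log2 fold change 1.09 ± 0.09, adjusted p = 9.36e-05) and its relative tre-5, which overlaps sptl-1, fell (log2 fold change -1.2 ± 0.21, adjusted p = 0.00158). The late embryogenesis abundant gene lea-1, known for its part in drying tolerance and overlapping K08H10.2, had 79.0 and 73.7 CPM in lin-45 embryos, against 46.0 and 47.4 CPM in N2 embryos (log2 fold change 0.71 ± 0.24, adjusted p = 0.033), a call lost under upper-quartile factors (adjusted p = 0.051) and without any 1 of the 4 libraries (adjusted p = 0.0646 to 0.133).

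**Figure D2:**
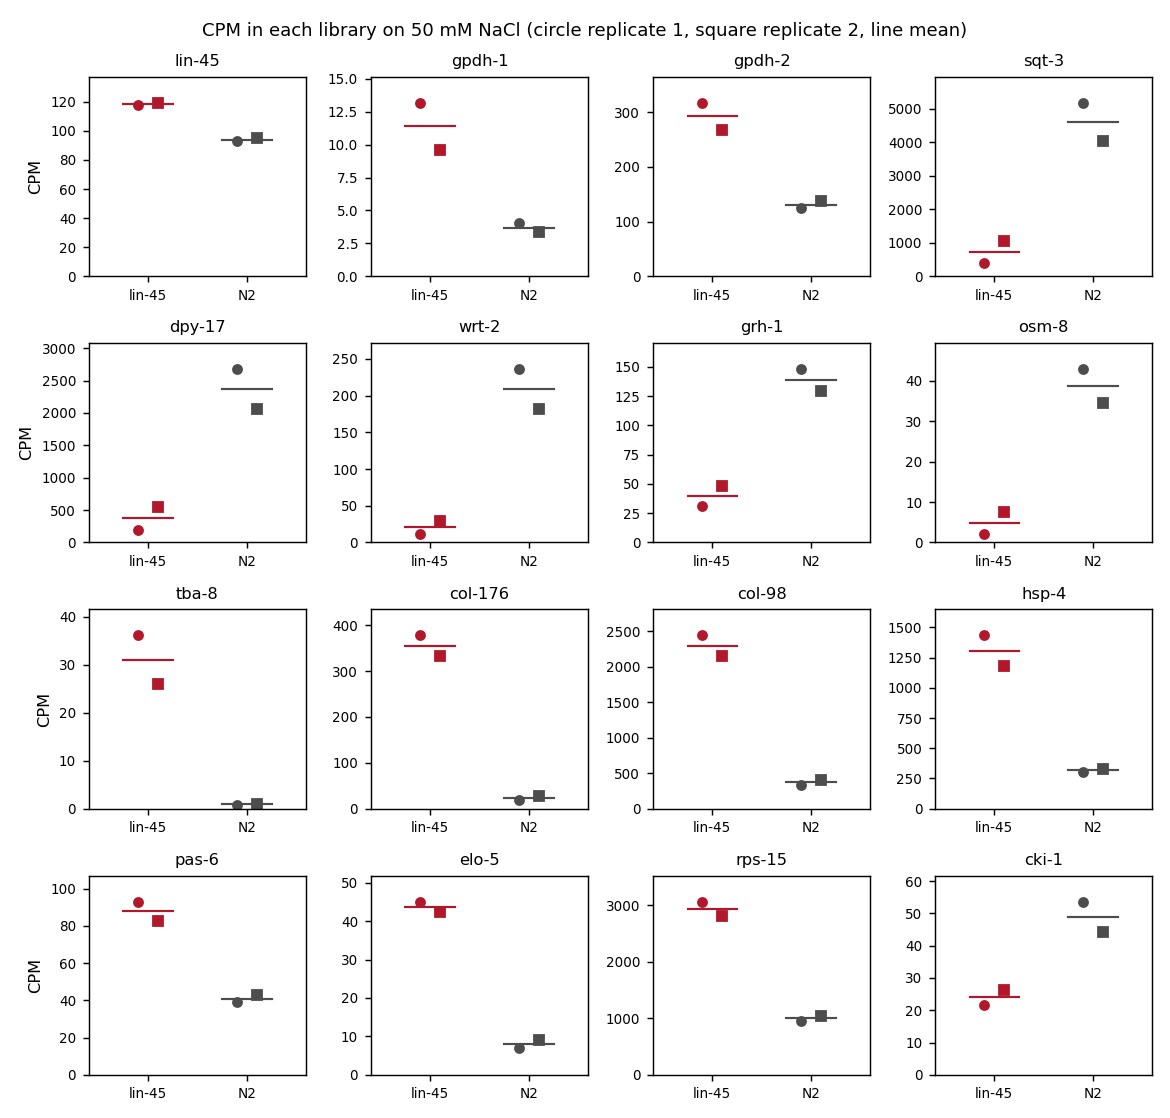
CPM of 16 genes named in the text in each library on 50 mM NaCl, with lin-45 libraries in red at the left and N2 libraries in grey at the right of each panel; circles are replicate 1, squares replicate 2 and lines the means of 2 libraries. Each vertical axis starts at 0; in sqt-3, dpy-17, wrt-2, grh-1, osm-8 and cki-1 both lin-45 libraries lie below both N2 libraries, and in the remaining genes they lie higher.

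Against the background of 33.2% higher and 21.1% lower, the gene lists with the largest shares called lower were cadherins, hedgehog-related and patched-related genes, precuticle genes, epidermal factors, neuronal genes and collagens. The lists with the largest shares called higher were cytosolic ribosomal proteins, the proteasome, oxidative phosphorylation, glycolysis and cathepsins. No list was tested as a set. Marker sums did not all move with these groups. Epidermal genes held 8304 and 8627 CPM in lin-45 embryos, against 12090 and 11540 CPM in N2 embryos. Neuronal genes held 6106 and 6005 CPM in lin-45 embryos, against 6359 and 6367 CPM in N2 embryos. Body wall muscle genes held 45790 and 43130 CPM in lin-45 embryos, against 42010 and 42510 CPM in N2 embryos. Germ granule genes, of which 39.0% were called higher, held 1165 and 1098 CPM in lin-45 embryos, against 828.5 and 833.8 CPM in N2 embryos. The part of cell makeup or stage in the gene groups was not tested.

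**Figure D3:**
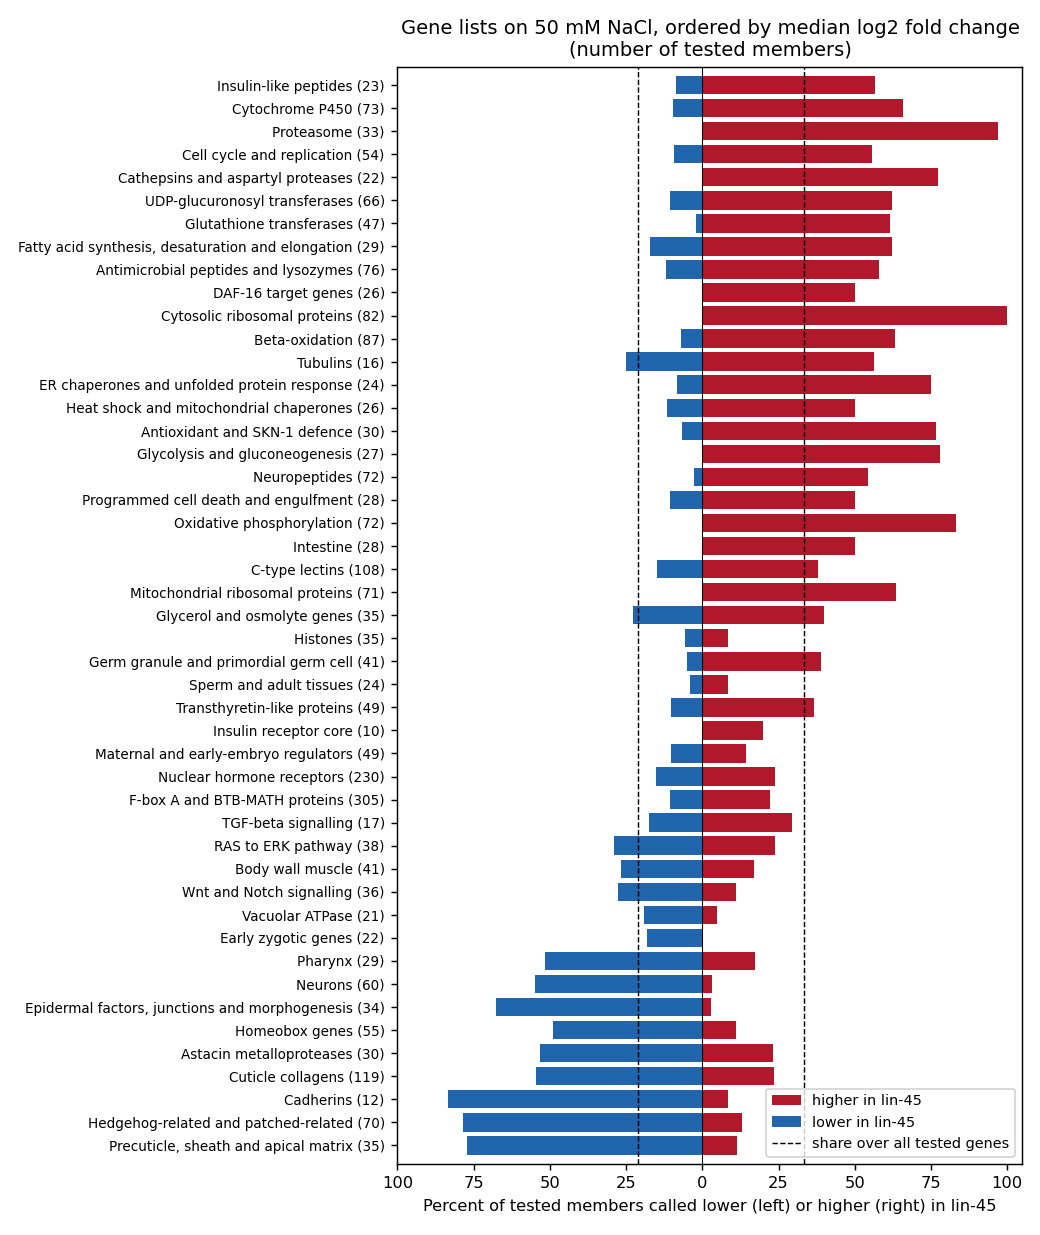
Share of each list's tested members called lower (blue, left) and higher (red, right) in lin-45 embryos on 50 mM NaCl, for 47 gene lists ordered by their median log2 fold change, with the number of tested members in brackets. The dashed lines mark the shares over all tested genes, 33.2% higher and 21.1% lower; all 82 tested cytosolic ribosomal protein genes were called higher and 55 of 70 hedgehog-related and patched-related genes lower.

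Genes of the embryonic cuticle and of the matrix that precedes it were among the most reduced. Of 35 tested precuticle, sheath and apical matrix genes, 27 (77.1%) fell and 4 rose, with a median log2 fold change of -1.76. Their summed level was 2002 and 2768 CPM in lin-45 embryos, against 8776 and 7264 CPM in N2 embryos. The lipocalin gene lpr-6 had 32.4 and 51.3 CPM in lin-45 embryos, against 210.5 and 179.9 CPM in N2 embryos (log2 fold change -2.22 ± 0.20, adjusted p = 0.000114). The leucine-rich repeat gene let-4, needed for tube integrity and overlapping C44H4.4, had 7.16 and 7.56 CPM in lin-45 embryos, against 22.7 and 19.3 CPM in N2 embryos (log2 fold change -1.51 ± 0.11, adjusted p = 6.97e-05). The gene dex-1, which encodes a matrix protein of dendrites and epithelia, had 37.9 and 56.2 CPM in lin-45 embryos, against 179.6 and 156 CPM in N2 embryos (log2 fold change -1.83 ± 0.17, adjusted p = 0.00012). In these 3 genes every lin-45 library lay below every N2 library. An exception was dpy-6, a mucin-like gene that overlaps F16F9.1, with 146 and 103 CPM in lin-45 embryos, against 16.1 and 18.9 CPM in N2 embryos (log2 fold change 2.83 ± 0.18, adjusted p = 3.94e-05). It rose 7.09-fold. Genes of the cuticlin-like cutl family had 22 of 27 tested members lower and 0 higher; cutl-13 had 2.12 and 4.71 CPM in lin-45 embryos, against 25.5 and 19.6 CPM in N2 embryos (log2 fold change -2.68 ± 0.28, adjusted p = 0.00018).

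Cuticle collagens split into a larger lower and a smaller higher group. Of 119 tested collagen genes, 65 (54.6%) fell and 28 (23.5%) rose, with a median log2 fold change of -0.86. Among the 10 called genes with the largest differences in CPM, sqt-3, needed for the first larval cuticle and body shape, had 388 and 1047 CPM in lin-45 embryos, against 5172 and 4030.4 CPM in N2 embryos (log2 fold change -2.68 ± 0.38, adjusted p = 0.0006). Its genetic partner dpy-17, also among them, had 190.3 and 554 CPM in lin-45 embryos, against 2673 and 2056 CPM in N2 embryos (log2 fold change -2.67 ± 0.41, adjusted p = 0.000825). The furrow collagen gene dpy-7, which overlaps glb-16, had 25.4 and 39.5 CPM in lin-45 embryos, against 169 and 141 CPM in N2 embryos (log2 fold change -2.25 ± 0.19, adjusted p = 0.000102). All 3 fell more than 4-fold, and lin-45 replicate 1 was the lowest library in each. In the opposite direction, col-98 had 2442 and 2148 CPM in lin-45 embryos, against 337 and 407 CPM in N2 embryos (log2 fold change 2.62 ± 0.18, adjusted p = 5.42e-05). The gene col-103 had 2362 and 1961 CPM in lin-45 embryos, against 349.7 and 413 CPM in N2 embryos (log2 fold change 2.50 ± 0.18, adjusted p = 6.97e-05). Collagen gene col-42, listed as Y69H2.14, had 2191 and 1833 CPM in lin-45 embryos, against 364 and 437 CPM in N2 embryos (log2 fold change 2.33 ± 0.19, adjusted p = 9.88e-05). These 3 rose 5-fold or more. Larger folds were seen at lower N2 levels. The collagen gene col-176 had 378 and 333 CPM in lin-45 embryos, against 19.2 and 26.8 CPM in N2 embryos (log2 fold change 3.95 ± 0.17, adjusted p = 2.19e-05). The gene col-149, which overlaps B0024.15, had 125 and 69.5 CPM in lin-45 embryos, against 0.793 and 1.81 CPM in N2 embryos (log2 fold change 6.16 ± 0.38, adjusted p = 3.54e-05), 71.3-fold higher. Summed over the list, collagen genes held 35110 and 34870 CPM in lin-45 embryos, against 42760 and 38880 CPM in N2 embryos.

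Hedgehog-related secreted proteins and patched-related membrane proteins act in the worm's epidermis, in molting and in matrix formation. Of 70 tested genes of these families, 55 (78.6%) fell and 9 rose, with a median of -1.72. The warthog gene wrt-2, which overlaps pccb-1, had 11.3 and 29.8 CPM in lin-45 embryos, against 236 and 181 CPM in N2 embryos (log2 fold change -3.33 ± 0.38, adjusted p = 0.000231). The patched homologue ptc-3, which overlaps Y110A2AL.9, had 99.2 and 134 CPM in lin-45 embryos, against 409.9 and 364 CPM in N2 embryos (log2 fold change -1.73 ± 0.14, adjusted p = 9.36e-05). The patched-related gene ptr-20 had 15.2 and 24.4 CPM in lin-45 embryos, against 91.4 and 82.3 CPM in N2 embryos (log2 fold change -2.12 ± 0.20, adjusted p = 0.000135). All 3 fell, wrt-2 about 10-fold. Of the ground-like genes, 15 of 21 tested fell; grl-1, which overlaps C24G6.2, had 13.4 and 20.5 CPM in lin-45 embryos, against 68 and 65.3 CPM in N2 embryos (log2 fold change -1.96 ± 0.18, adjusted p = 0.00013). The only grl gene to rise was grl-21, with 334 and 305 CPM in lin-45 embryos, against 146 and 139 CPM in N2 embryos (log2 fold change 1.17 ± 0.11, adjusted p = 0.000126). Astacin metalloproteases, a family that includes cuticle-processing enzymes, had 16 of 30 tested members lower and 7 higher; nas-12 had 1.11 and 3.26 CPM in lin-45 embryos, against 16.6 and 15.9 CPM in N2 embryos (log2 fold change -2.84 ± 0.37, adjusted p = 0.000408).

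The genes cut-2, F41F3.3 and ZK180.5 were also among the 10 with the largest differences in CPM. The cuticlin gene cut-2, which overlaps F53F1.6, had 327 and 629 CPM in lin-45 embryos, against 3235 and 2591 CPM in N2 embryos (log2 fold change -2.61 ± 0.28, adjusted p = 0.000193). The gene F41F3.3 had 358 and 924 CPM in lin-45 embryos, against 4883 and 4044 CPM in N2 embryos (log2 fold change -2.80 ± 0.37, adjusted p = 0.000423). The gene ZK180.5 had 341 and 665 CPM in lin-45 embryos, against 3063 and 2585 CPM in N2 embryos (log2 fold change -2.49 ± 0.28, adjusted p = 0.000222). All 3 fell, with lin-45 replicate 1 lowest.

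Epidermal regulators and junction genes were also lower. Of 34 tested genes for epidermal factors, junctions and morphogenesis, 23 (67.6%) fell and 1 rose, with a median of -0.44. The gene grh-1, which encodes the Grainyhead factor of epidermal barriers, had 30.7 and 48.6 CPM in lin-45 embryos, against 148 and 129 CPM in N2 embryos (log2 fold change -1.80 ± 0.20, adjusted p = 0.000228). The apical junction gene ajm-1, which overlaps H08J11.2, had 309 and 369 CPM in lin-45 embryos, against 677 and 619.6 CPM in N2 embryos (log2 fold change -0.94 ± 0.10, adjusted p = 0.000196). The gene hmr-1, the classical cadherin, had 346 and 379.6 CPM in lin-45 embryos, against 609 and 567 CPM in N2 embryos (log2 fold change -0.69 ± 0.08, adjusted p = 0.000219). In all 3 the lin-45 libraries lay below the N2 libraries. The epidermal intermediate filament gene ifa-3 had 7.43 and 14.5 CPM in lin-45 embryos, against 68.4 and 60.9 CPM in N2 embryos (log2 fold change -2.54 ± 0.24, adjusted p = 0.000134). The single riser on the list was nhr-23, a nuclear receptor gene that controls molting, with 63.7 and 49.2 CPM in lin-45 embryos, against 27.5 and 27.2 CPM in N2 embryos (log2 fold change 1.04 ± 0.12, adjusted p = 0.000233). Of 12 tested cadherin genes 10 fell. The Flamingo homologue fmi-1 had 93.9 and 135 CPM in lin-45 embryos, against 404 and 362 CPM in N2 embryos (log2 fold change -1.74 ± 0.16, adjusted p = 0.00013). The exception, cdh-7, had 14.6 and 6.49 CPM in lin-45 embryos, against 0.529 and 0.125 CPM in N2 embryos (log2 fold change 5.10 ± 0.57, adjusted p = 0.000228), a rise on few counts in N2. The zinc-finger gene die-1, required for morphogenesis, had 58.3 and 67.6 CPM in lin-45 embryos, against 133 and 126 CPM in N2 embryos (log2 fold change -1.04 ± 0.10, adjusted p = 0.000141).

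Genes of neurons, pharynx and developmental transcription factors were lower as well, while neuropeptide genes were higher. Of 60 tested neuronal genes, 33 (55.0%) fell and 2 rose, with a median of -0.43. The gene unc-3, which encodes an EBF factor of motor neurons, had 14.8 and 20.3 CPM in lin-45 embryos, against 41.6 and 40.3 CPM in N2 embryos (log2 fold change -1.21 ± 0.14, adjusted p = 0.000218). The homeobox gene unc-42 had 13.7 and 15.1 CPM in lin-45 embryos, against 29.1 and 27.7 CPM in N2 embryos (log2 fold change -0.98 ± 0.10, adjusted p = 0.000161). The ciliary transport gene che-11 had 27.0 and 28.3 CPM in lin-45 embryos, against 62.0 and 54.1 CPM in N2 embryos (log2 fold change -1.07 ± 0.12, adjusted p = 0.000221). Each fell, with both lin-45 libraries below both N2 libraries. Of 72 tested neuropeptide genes, 39 (54.2%) rose and 2 fell; the count without lin-45 or N2 replicates ranged from 16 to 33. The FMRFamide-like gene flp-14 had 142 and 134 CPM in lin-45 embryos, against 70.5 and 78.3 CPM in N2 embryos (log2 fold change 0.89 ± 0.13, adjusted p = 0.000705). The neuropeptide gene nlp-11 had 69.9 and 61.1 CPM in lin-45 embryos, against 31.9 and 36.9 CPM in N2 embryos (log2 fold change 0.93 ± 0.14, adjusted p = 0.000857). Summed over the list, neuropeptide genes held 3762 and 3547 CPM in lin-45 embryos, against 2593 and 2802 CPM in N2 embryos. Neuronal genes held 6106 and 6005 CPM in lin-45 embryos, against 6359 and 6367 CPM in N2 embryos.

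Of 55 tested homeobox genes, 27 (49.1%) fell and 6 (10.9%) rose. The rises depended on the processing, with 0 to 4 genes higher under the alternatives run. The Six-family gene ceh-32 had 68.4 and 82.5 CPM in lin-45 embryos, against 152 and 143 CPM in N2 embryos (log2 fold change -0.97 ± 0.10, adjusted p = 0.000161). The gene ceh-22, the NKX factor of the pharynx, had 15 and 18.1 CPM in lin-45 embryos, against 32.8 and 32.8 CPM in N2 embryos (log2 fold change -0.98 ± 0.11, adjusted p = 0.000231). The Eyes absent homologue eya-1, which overlaps fipr-24, had 17.6 and 21.8 CPM in lin-45 embryos, against 47.6 and 43.5 CPM in N2 embryos (log2 fold change -1.21 ± 0.13, adjusted p = 0.000176). All 3 fell about 2-fold. Basic helix-loop-helix genes had 10 of 18 tested members lower and 1 higher, and innexin gap junction genes 12 of 19 lower and 0 higher. Of 29 tested pharyngeal genes, 15 (51.7%) fell and 5 rose; abu-14, which overlaps ZK1067.3 and encodes a pharyngeal cuticle-like protein, had 201 and 345 CPM in lin-45 embryos, against 1150.1 and 1048 CPM in N2 embryos (log2 fold change -2.01 ± 0.24, adjusted p = 0.000267), whereas the transporter gene pgp-14 had 751 and 606 CPM in lin-45 embryos, against 278 and 314 CPM in N2 embryos (log2 fold change 1.2 ± 0.14, adjusted p = 0.000275). These genes moved in opposite directions.

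Body wall muscle genes had 7 of 41 (17.1%) higher and 11 (26.8%) lower and a median of -0.09. Over all tested genes the shares were 33.2% and 21.1%. Their summed level was 45790 and 43130 CPM in lin-45 embryos, against 42010 and 42510 CPM in N2 embryos. The perlecan gene unc-52 had 789 and 834 CPM in lin-45 embryos, against 1583 and 1440.5 CPM in N2 embryos (log2 fold change -0.90 ± 0.10, adjusted p = 0.00025). The myosin chaperone gene unc-45 had 144 and 164 CPM in lin-45 embryos, against 304 and 281 CPM in N2 embryos (log2 fold change -0.92 ± 0.09, adjusted p = 0.000153). Both fell, while the 7 muscle genes that rose are not named here. In Wnt and Notch signalling, 10 of 36 tested genes (27.8%) fell and 4 (11.1%) rose, against 21.1% and 33.2% over all tested genes. The share that fell was thus not far from the background. The genes named next are among those that fell, and the 4 that rose are not named. The Wnt gene cwn-2 had 33.0 and 35.9 CPM in lin-45 embryos, against 69.3 and 67.3 CPM in N2 embryos (log2 fold change -0.99 ± 0.08, adjusted p = 9.54e-05). The gene lin-44, another Wnt gene, had 7.71 and 8.07 CPM in lin-45 embryos, against 16.8 and 15.7 CPM in N2 embryos (log2 fold change -1.04 ± 0.11, adjusted p = 0.000198). The frizzled gene cfz-2 had 42.9 and 52.5 CPM in lin-45 embryos, against 99.5 and 91.7 CPM in N2 embryos (log2 fold change -1.0 ± 0.11, adjusted p = 0.000195). Each of the 3 was about 2-fold lower. In the TGF-beta list 5 of 17 genes (29.4%) rose and 3 (17.6%) fell, both shares below the 33.2% and 21.1% over all tested genes. The ligand gene daf-7 had 63.8 and 44.5 CPM in lin-45 embryos, against 17.1 and 20.8 CPM in N2 embryos (log2 fold change 1.51 ± 0.19, adjusted p = 0.000322). The gene lon-1, a target and regulator of body size signalling, had 51.8 and 37.7 CPM in lin-45 embryos, against 11.2 and 12.8 CPM in N2 embryos (log2 fold change 1.89 ± 0.19, adjusted p = 0.000152). Both rose.

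Intestinal, lipid and detoxification genes formed a group that was higher in lin-45 embryos. Of 28 tested intestinal genes, 14 (50.0%) rose and 0 fell, with summed levels of 10840 and 10320 CPM in lin-45 embryos, against 6971 and 7597 CPM in N2 embryos. The gut esterase gene ges-1 had 34.2 and 34.2 CPM in lin-45 embryos, against 16.4 and 18.8 CPM in N2 embryos (log2 fold change 0.96 ± 0.12, adjusted p = 0.000287). The P-glycoprotein gene pgp-1 had 502 and 433 CPM in lin-45 embryos, against 149 and 156 CPM in N2 embryos (log2 fold change 1.62 ± 0.14, adjusted p = 0.000112). Of 29 tested genes for fatty acid synthesis, desaturation and elongation, 18 (62.1%) rose and 5 fell. The elongase genes elo-5 and elo-6 make branched-chain fatty acids; elo-5, which overlaps F41H10.3, had 45.1 and 42.5 CPM in lin-45 embryos, against 6.87 and 9.13 CPM in N2 embryos (log2 fold change 2.44 ± 0.19, adjusted p = 7.57e-05). Its partner elo-6 had 169 and 155 CPM in lin-45 embryos, against 54.6 and 60.3 CPM in N2 embryos (log2 fold change 1.49 ± 0.11, adjusted p = 6.26e-05). The desaturase gene fat-4 had 207 and 179.9 CPM in lin-45 embryos, against 73.8 and 86.0 CPM in N2 embryos (log2 fold change 1.28 ± 0.11, adjusted p = 9.36e-05). In all 3 the lin-45 libraries lay above the N2 libraries. Against them, the acyl-CoA synthetase gene acs-3 had 3.83 and 4.88 CPM in lin-45 embryos, against 20.3 and 18.2 CPM in N2 embryos (log2 fold change -2.13 ± 0.18, adjusted p = 9.36e-05), a fall of more than 4-fold.

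Beta-oxidation genes had 55 of 87 tested members (63.2%) higher and 6 lower. The mitochondrial carnitine transferase gene cpt-2 had 330.1 and 304 CPM in lin-45 embryos, against 160.0 and 180.1 CPM in N2 embryos (log2 fold change 0.90 ± 0.08, adjusted p = 0.000126). The gene ech-9, an enoyl-CoA hydratase gene, had 164 and 127 CPM in lin-45 embryos, against 26.0 and 40.8 CPM in N2 embryos (log2 fold change 2.11 ± 0.21, adjusted p = 0.000155). Both rose. Cytochrome P450 genes, whose products oxidise lipids and foreign compounds, had 48 of 73 (65.8%) higher and 7 lower, with a median of 0.95. Their summed level was 3664 and 3122 CPM in lin-45 embryos, against 1223 and 1314 CPM in N2 embryos. The gene cyp-13A5 had 783 and 671 CPM in lin-45 embryos, against 127 and 151 CPM in N2 embryos (log2 fold change 2.39 ± 0.14, adjusted p = 3.47e-05). The gene cyp-33C8 had 158 and 139.5 CPM in lin-45 embryos, against 49.0 and 49.8 CPM in N2 embryos (log2 fold change 1.59 ± 0.08, adjusted p = 2.66e-05). UDP-glucuronosyl transferase genes had 41 of 66 (62.1%) higher and 7 lower. Of glutathione transferase genes, 29 of 47 (61.7%) rose and 1 fell; gst-5, which overlaps nos-1, had 1701 and 1699 CPM in lin-45 embryos, against 656 and 623 CPM in N2 embryos (log2 fold change 1.41 ± 0.09, adjusted p = 4.48e-05). All 3 enzyme families had more members higher than lower. Lysosomal-type proteases followed, with 17 of 22 tested cathepsin and aspartyl protease genes (77.3%) higher and 0 lower: the cathepsin D-like gene asp-4, which overlaps R12H7.4, had 199 and 166 CPM in lin-45 embryos, against 57.3 and 54.4 CPM in N2 embryos (log2 fold change 1.71 ± 0.10, adjusted p = 3.47e-05).

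Genes that make and break proteins rose broadly, by modest amounts. All 82 tested cytosolic ribosomal protein genes were called higher, with log2 fold changes from 0.28 to 1.55 and a median of 0.55. Their summed level was 132600 and 117900 CPM in lin-45 embryos, against 82270 and 85870 CPM in N2 embryos. The largest change was in rps-15, with 3066 and 2803 CPM in lin-45 embryos, against 960.2 and 1041 CPM in N2 embryos (log2 fold change 1.55 ± 0.09, adjusted p = 3.47e-05). The count was 79 to 82 under other scalings, filters and fits, and 74 to 81 when a library was left out. Of 33 tested proteasome genes 32 (97.0%) rose, with a median of 0.90, and the count was 32 under every alternative run. The core subunit gene pas-6 had 93.0 and 82.4 CPM in lin-45 embryos, against 38.9 and 42.8 CPM in N2 embryos (log2 fold change 1.1 ± 0.10, adjusted p = 0.000122). The regulatory subunit gene rpt-4, which overlaps F23F1.9 and nfyc-1, had 105 and 99.9 CPM in lin-45 embryos, against 60.5 and 60.0 CPM in N2 embryos (log2 fold change 0.77 ± 0.07, adjusted p = 0.000147). The summed proteasome level was 3277 and 2932 CPM in lin-45 embryos, against 1723 and 1770 CPM in N2 embryos. Nucleoporin genes had 19 of 21 members higher and 0 lower, among them npp-9, which overlaps clpf-1 (log2 fold change 1.07 ± 0.11, adjusted p = 0.000172). The elongation factor gene eef-1A.1 had 8113 and 7194 CPM in lin-45 embryos, against 5011 and 5015 CPM in N2 embryos (log2 fold change 0.61 ± 0.08, adjusted p = 0.000496); its near-identical copy eef-1A.2 makes the split of reads between them uncertain.

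Mitochondrial lists rose by less and depended on the processing. Oxidative phosphorylation genes had 60 of 72 (83.3%) higher and 0 lower with a median of 0.35, and 27 to 60 under other scalings, filters and fits. Mitochondrial ribosomal protein genes had 45 of 71 (63.4%) higher and 0 lower with a median of 0.30, and 8 to 45 under those alternatives. The ATP synthase gene atp-2 had 2974 and 2673 CPM in lin-45 embryos, against 1900.0 and 1985 CPM in N2 embryos (log2 fold change 0.54 ± 0.08, adjusted p = 0.000532). The complex III gene ucr-1 had 605 and 559.5 CPM in lin-45 embryos, against 403 and 409 CPM in N2 embryos (log2 fold change 0.52 ± 0.07, adjusted p = 0.0005). Both stood about 1.4-fold higher. Glycolysis and gluconeogenesis genes had 21 of 27 (77.8%) higher and 0 lower; the enolase gene enol-1 had 784 and 707 CPM in lin-45 embryos, against 371 and 401 CPM in N2 embryos (log2 fold change 0.95 ± 0.08, adjusted p = 0.000106).

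Chaperone genes rose, led by those of the endoplasmic reticulum. Of 24 tested genes for ER chaperones and the unfolded protein response, 18 (75.0%) rose and 2 fell. The BiP homologue hsp-4, a standard reporter of that response, had 1434 and 1178 CPM in lin-45 embryos, against 302 and 330.2 CPM in N2 embryos (log2 fold change 2.05 ± 0.15, adjusted p = 6.15e-05), 4.13-fold higher. Its transcription factor gene xbp-1 had 1088 and 1004 CPM in lin-45 embryos, against 636 and 650.4 CPM in N2 embryos (log2 fold change 0.70 ± 0.08, adjusted p = 0.000251). The disulfide isomerase gene pdi-1 had 395 and 343 CPM in lin-45 embryos, against 218 and 198 CPM in N2 embryos (log2 fold change 0.83 ± 0.11, adjusted p = 0.00045). In the heat shock list 13 of 26 (50.0%) rose and 3 fell, with 6 to 13 higher under other scalings, filters and fits. The constitutive HSP70 gene hsp-1 had 2602 and 2307 CPM in lin-45 embryos, against 1233 and 1203 CPM in N2 embryos (log2 fold change 1.01 ± 0.08, adjusted p = 6.97e-05). The small heat shock gene hsp-12.1 went the other way, with 8.17 and 13.7 CPM in lin-45 embryos, against 51.8 and 47.8 CPM in N2 embryos (log2 fold change -2.17 ± 0.20, adjusted p = 0.000123). Antioxidant and SKN-1 defence genes had 23 of 30 (76.7%) higher and 2 lower; the superoxide dismutase gene sod-1 had 372 and 352 CPM in lin-45 embryos, against 207 and 233 CPM in N2 embryos (log2 fold change 0.72 ± 0.10, adjusted p = 0.000444).

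Many insulin-like ligand genes were higher, while few genes of their receptor pathway passed the threshold. Of 23 tested insulin-like peptide genes, 13 (56.5%) rose and 2 fell; 17 of the 40 listed were too low to test. The gene ins-27 had 34.2 and 28.4 CPM in lin-45 embryos, against 3.70 and 5.25 CPM in N2 embryos (log2 fold change 2.79 ± 0.22, adjusted p = 8.55e-05). The gene daf-28, which encodes an agonist of the DAF-2 receptor, had 22.6 and 16.2 CPM in lin-45 embryos, against 6.30 and 7.91 CPM in N2 embryos (log2 fold change 1.44 ± 0.22, adjusted p = 0.000897). Both rose. Of the 10 receptor pathway genes, 2 (20%) rose, 0 fell and 8 were not called. Over all tested genes 33.2% rose, 21.1% fell and 6764 of 14802 were not called. For 7 of the 10, both lin-45 libraries lay above both N2 libraries, so the genes not called were not shown to be unchanged. The PI3 kinase adaptor gene aap-1, which overlaps Y110A7A.21, rose (log2 fold change 0.81 ± 0.10, adjusted p = 0.000272). Genes known as DAF-16 targets had 13 of 26 (50.0%) higher and 0 lower. The metallothionein gene mtl-1 had 36.2 and 40.0 CPM in lin-45 embryos, against 10.8 and 12.4 CPM in N2 embryos (log2 fold change 1.71 ± 0.23, adjusted p = 0.000415). The lysozyme gene lys-8, which overlaps cdc-14, had 335 and 318 CPM in lin-45 embryos, against 154 and 170.2 CPM in N2 embryos (log2 fold change 1.01 ± 0.11, adjusted p = 0.000181). Antimicrobial peptide and lysozyme genes had 44 of 76 (57.9%) higher and 9 lower, with nlp-27 at 127 and 126 CPM in lin-45 embryos, against 26.7 and 30.3 CPM in N2 embryos (log2 fold change 2.14 ± 0.13, adjusted p = 3.47e-05). C-type lectin genes, at 41 of 108 (38.0%) higher and 16 (14.8%) lower, were closer to the background.

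Cell cycle genes were often called higher in the reported fit, but this excess over the background did not hold when most single libraries were left out. Of 54 tested genes of the cell cycle and replication, 30 (55.6%) rose and 5 fell, with a median of 0.86. Over all tested genes 33.2% rose and 21.1% fell. Without either N2 library, or without lin-45 replicate 1, the list's share called higher was below that over all tested genes in the same fit. The count of higher genes was 7 without N2 replicate 1, 8 without N2 replicate 2, 10 without lin-45 replicate 1 and 22 without lin-45 replicate 2. The Aurora kinase gene air-1 had 31.8 and 27.7 CPM in lin-45 embryos, against 13.3 and 13.8 CPM in N2 embryos (log2 fold change 1.14 ± 0.24, adjusted p = 0.00391). The centrosome gene spd-2, which overlaps mdt-31, had 30.1 and 30.0 CPM in lin-45 embryos, against 16.7 and 14.5 CPM in N2 embryos (log2 fold change 0.95 ± 0.17, adjusted p = 0.00202). In the other direction cki-1, which encodes an inhibitor of cyclin-dependent kinases, had 21.7 and 26.3 CPM in lin-45 embryos, against 53.6 and 44.2 CPM in N2 embryos (log2 fold change -1.02 ± 0.12, adjusted p = 0.000231). The risers air-1 and spd-2 and the falling cki-1 each had separate libraries. Tubulin genes had 9 of 16 higher and 4 lower: tbb-2 had 889 and 741 CPM in lin-45 embryos, against 384 and 368 CPM in N2 embryos (log2 fold change 1.11 ± 0.13, adjusted p = 0.000251), while the ciliary tubulin gene tbb-4 had 36.1 and 44.0 CPM in lin-45 embryos, against 88.9 and 81.8 CPM in N2 embryos (log2 fold change -1.09 ± 0.10, adjusted p = 0.000136). The alpha tubulin gene tba-8 had 36.1 and 25.9 CPM in lin-45 embryos, against 0.837 and 1.03 CPM in N2 embryos (log2 fold change 5.03 ± 0.29, adjusted p = 3.37e-05), 32.6-fold higher. Of 28 tested genes for programmed cell death and engulfment 14 (50.0%) rose and 3 fell, with ced-6, which overlaps C05D2.10 and encodes an engulfment adaptor, at 61.2 and 60.0 CPM in lin-45 embryos, against 37.3 and 40.1 CPM in N2 embryos (log2 fold change 0.65 ± 0.08, adjusted p = 0.000266).

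Lists that mark germline, maternal and adult RNA were examined as checks on the tissue collected. Over all tested genes 33.2% rose and 21.1% fell. The germ granule share that rose and the early zygotic share that fell were near these values, and the maternal and histone shares were below them. Of 41 tested germ granule and primordial germ cell genes 16 (39.0%) rose and 2 fell; the Piwi gene prg-1, which overlaps D2030.12, had 188 and 165 CPM in lin-45 embryos, against 81.2 and 85.8 CPM in N2 embryos (log2 fold change 1.08 ± 0.09, adjusted p = 8.56e-05). Of 49 maternal and early-embryo regulators 7 (14.3%) rose and 5 (10.2%) fell, with a median of 0.07. Of 39 early zygotic genes only 22 were tested, and 0 rose and 4 (18.2%) fell. Sperm and adult genes, which whole embryos should lack, had 24 of 108 listed members above the filter, and their summed level was 130.6 and 130.7 CPM in lin-45 embryos, against 130.3 and 127.0 CPM in N2 embryos. Only 35 of 78 listed histone genes were tested, 3 higher and 2 lower; the linker histone gene hil-7 had 128 and 249 CPM in lin-45 embryos, against 975 and 853 CPM in N2 embryos (log2 fold change -2.28 ± 0.26, adjusted p = 0.000241).

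Further genes that rose included srw-85, a member of a chemoreceptor family. It had 52.4 and 53.8 CPM in lin-45 embryos, against 1.5 and 1.31 CPM in N2 embryos (log2 fold change 5.25 ± 0.24, adjusted p = 2.19e-05). The gene Y47H10A.5 had 159 and 128 CPM in lin-45 embryos, against 12.5 and 16.9 CPM in N2 embryos (log2 fold change 3.28 ± 0.24, adjusted p = 6.97e-05). The aspartyl protease gene asp-12, listed as F21F8.4, had 128 and 96.8 CPM in lin-45 embryos, against 10.2 and 14.3 CPM in N2 embryos (log2 fold change 3.19 ± 0.19, adjusted p = 3.47e-05). The gene Y41C4A.11 had 235 and 153 CPM in lin-45 embryos, against 8.06 and 15.6 CPM in N2 embryos (log2 fold change 4.02 ± 0.31, adjusted p = 7.54e-05). All 4 rose at least 9-fold, and asp-12 was already counted in the cathepsin and aspartyl protease list. Among falling genes Y68A4B.3 had 0.462 and 1.41 CPM in lin-45 embryos, against 16.3 and 14.1 CPM in N2 embryos (log2 fold change -3.96 ± 0.39, adjusted p = 0.00015). The gene mam-3 had 2.31 and 6.36 CPM in lin-45 embryos, against 49.4 and 39.5 CPM in N2 embryos (log2 fold change -3.32 ± 0.37, adjusted p = 0.000214). In both, lin-45 replicate 1 was lower than replicate 2.

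Genes that were silent in lin-45 embryos lay in a stretch of chromosome V. With no count in either lin-45 library on 50 mM NaCl, F56A4.3 (chromosome V, 2453412 to 2456146, ce10) had 0 and 0 CPM in lin-45 embryos, against 28.0 and 34.4 CPM in N2 embryos. It was at least 538-fold lower, taking 3 counts over the lin-45 pair as the floor. Its neighbour irld-35 (2456174 to 2458285, minus strand) had 0 and 0 CPM in lin-45 embryos, against 25.3 and 21.0 CPM in N2 embryos, at least 386-fold lower. The chemoreceptor gene srbc-15 (2345674 to 2348177) had 0 and 0 CPM in lin-45 embryos, against 4.54 and 3.97 CPM in N2 embryos, at least 71.2-fold lower. All 3 met the rule for silence, at most 3 counts over the 4 lin-45 libraries of both salt levels and a mean of at least 1 CPM in N2 embryos at each, and no gene met the same rule with the strains exchanged. On 500 mM NaCl the pair of lin-45 libraries held 2, 0 and 0 counts of F56A4.3, irld-35 and srbc-15, against 936, 797 and 165 counts in N2 embryos. These floors cover counting error only.

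Between srbc-15 and F56A4.3 lie 14 tested genes, of which 7 fell on 50 mM NaCl and 7 were not called. Over all tested genes 21.1% fell, and on chromosome V 19.8%. Among the genes of this stretch, Y19D10A.5, Y19D10A.4, Y19D10A.16, F56A4.4, Y19D10A.2 and srd-71 have the same summed counts as gene models beyond F56A4.3. Where these were tested, their calls therefore do not report this stretch alone. The genes named here were chosen after their values were seen. The lectin gene clec-209 had 79.2 and 63.9 CPM in lin-45 embryos, against 184 and 224 CPM in N2 embryos (log2 fold change -1.51 ± 0.21, adjusted p = 0.000545). The gene mct-1 had 27.6 and 25.9 CPM in lin-45 embryos, against 81.1 and 74.8 CPM in N2 embryos (log2 fold change -1.54 ± 0.11, adjusted p = 6.26e-05). The gene C13B7.6 had 13.0 and 13.2 CPM in lin-45 embryos, against 27.7 and 26.8 CPM in N2 embryos (log2 fold change -1.05 ± 0.10, adjusted p = 0.000121). All 3 fell on low salt and on 500 mM NaCl, where the log2 fold changes were -3.31, -1.5 and -1.28. In the same stretch F56A4.5 had 18.5 and 10.8 CPM in lin-45 embryos, against 9.12 and 15.9 CPM in N2 embryos (log2 fold change 0.22 ± 0.37, adjusted p = 0.659). The gene Y19D10A.4, whose summed counts equal those of C01B4.7, had 17.7 and 14.8 CPM in lin-45 embryos, against 11.3 and 12.2 CPM in N2 embryos (log2 fold change 0.47 ± 0.20, adjusted p = 0.0716). Neither was called. Just beyond srbc-15 the pud genes, named for proteins raised in daf-2 mutants, went the other way on low salt: pud-1.2 had 305 and 288 CPM in lin-45 embryos, against 55.0 and 92.9 CPM in N2 embryos (log2 fold change 2.00 ± 0.30, adjusted p = 0.000738). On high salt pud-1.2 was not called (log2 fold change -0.66, adjusted p = 0.266). The genes pud-2.1 and pud-2.2 carry identical counts and are one of 8 such pairs of gene models in this stretch, by counts summed per group and with at least 10 counts in all, so reads of those copies could not be assigned to either.

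**Figure D4:**
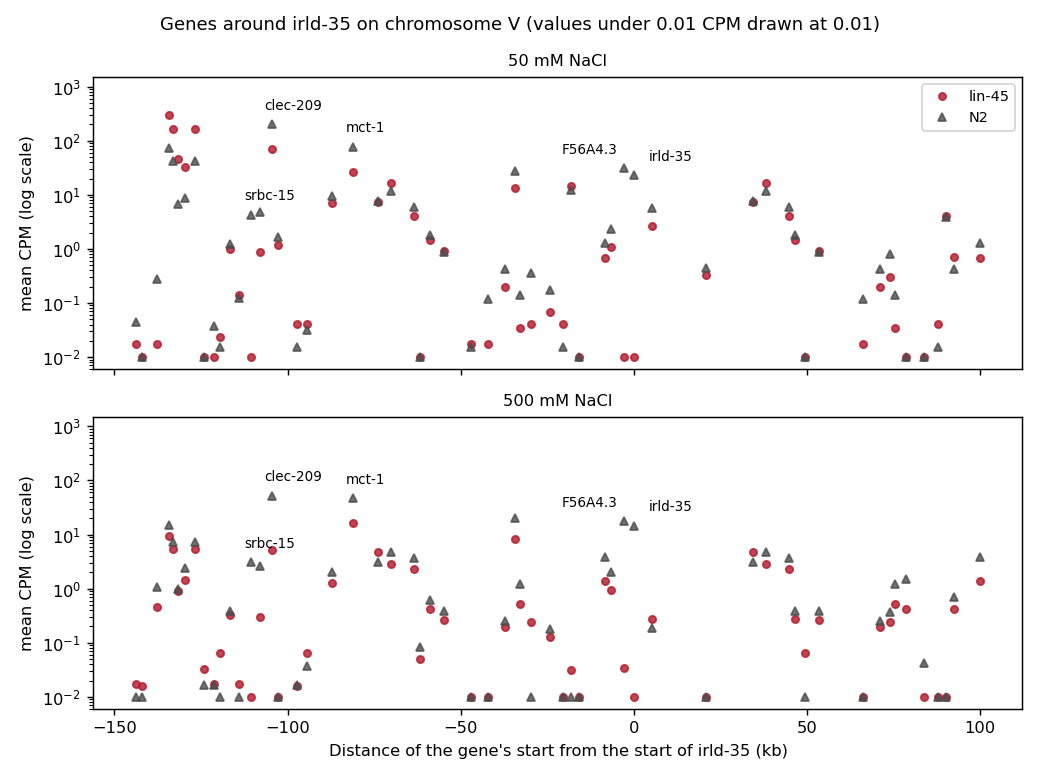
Mean CPM (log scale, values under 0.01 drawn at 0.01) of lin-45 (red circles) and N2 embryos (grey triangles) for the genes around irld-35 on chromosome V, on 50 mM NaCl (top) and 500 mM NaCl (bottom), against the distance of each gene's start from the start of irld-35 in kb. F56A4.3, irld-35 and srbc-15 lie at the floor in lin-45 embryos at both salt levels, or within 2 counts of it, and clec-209 and mct-1 lie below N2 at both.

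Calls were spread unevenly over chromosomes. On chromosome X, 469 of 2168 tested genes (21.6%) rose and 688 (31.7%) fell, with a median log2 fold change of -0.06. On the 5 autosomes 32.9% to 39.8% rose and 16.9% to 20.2% fell. No test of this difference was run.

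Fewer genes passed the threshold between the strains on high salt, in libraries that share none with the low salt comparison. Between lin-45 and N2 embryos on 500 mM NaCl, 961 genes passed (6.49%), 717 higher (4.84%) and 244 lower (1.65%), and the root mean square log2 difference was 0.517 on 500 mM and 0.917 on 50 mM NaCl. Leaving out any 1 of the 4 libraries on 500 mM NaCl from parents on 50 mM lowered the 961 to between 240 and 390, so the overlaps that follow rest on a count that single libraries change. A total of 773 genes were called in both comparisons, 567 higher in both, 167 lower in both and 39 in opposite directions. Shared calls of the same direction made up 76.4% of those on 500 mM NaCl and 9.13% of those on 50 mM. In either direction, 80.4% of the calls on 500 mM NaCl were also called on 50 mM, against 54.3% of all tested genes. Of the calls on 50 mM NaCl, 9.62% were called on 500 mM, against 6.49% of all tested genes. Both comparisons used the same estimate of the spread from all 10 libraries, so their calls are not independent and the overlap was not tested. The change of the strain difference with salt was called for 3912 genes (26.4%) by the interaction contrast, 3659 of them among the 8038 called on 50 mM. This interaction count fell to 787 without N2 50 mM replicate 1 and to 1110 without N2 500 mM replicate 2.

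**Figure D5:**
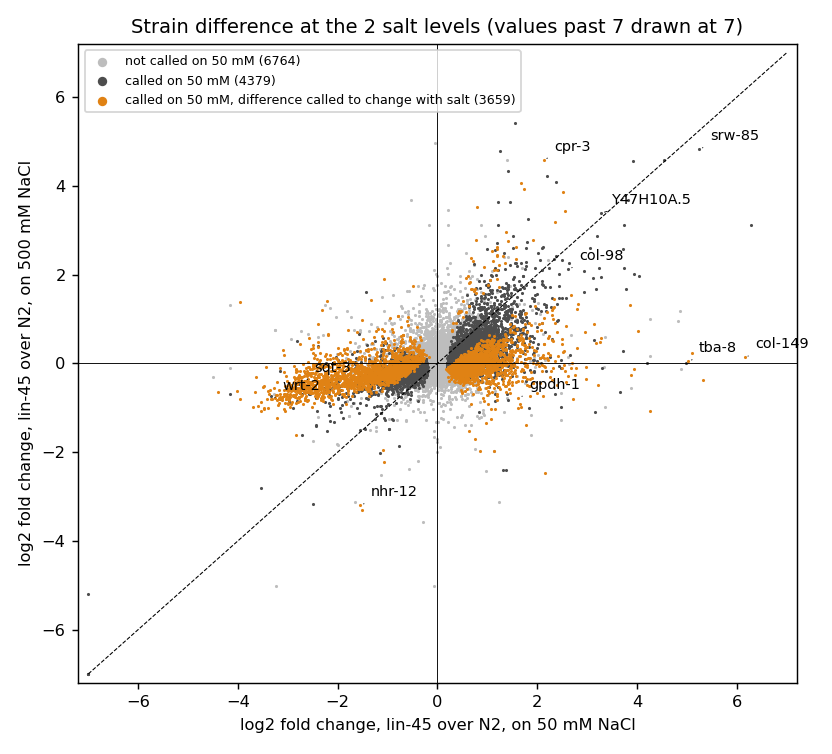
Log2 fold change of lin-45 over N2 embryos on 500 mM NaCl (vertical axis) against that on 50 mM NaCl (horizontal axis), one point per tested gene, with values past 7 drawn at 7. Orange points are the 3659 genes called on 50 mM NaCl whose difference was called to change with salt; since the contrast uses the same 50 mM values, their direction is partly set by the choice. The genes srw-85 and Y47H10A.5 lie near the dashed line of equal differences.

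On high salt 4.84% of all tested genes were called higher and 1.65% lower, and the lists that stood apart on low salt differed in how far they departed from this. Proteasome genes had a median log2 fold change of 0.10 on 500 mM NaCl with 1 of 33 called higher, ribosomal protein genes 0.11 with 2 of 82, precuticle genes -0.41 with 1 of 35 called lower, and hedgehog-related and patched-related genes -0.13 with 1 of 70 lower. On 500 mM NaCl sqt-3 had 2846 and 2983 CPM in lin-45 embryos, against 4048 and 3614 CPM in N2 embryos (log2 fold change -0.39 ± 0.36, adjusted p = 0.552), and hsp-4 had 80.8 and 88.7 CPM in lin-45 embryos, against 74.8 and 80.0 CPM in N2 embryos (log2 fold change 0.13 ± 0.14, adjusted p = 0.625). Neither was called on high salt. Other lists had more calls. Glycolysis and gluconeogenesis genes had 7 of 27 called higher on 500 mM NaCl with a median of 0.24, cathepsins and aspartyl proteases 5 of 22 with 0.44, UDP-glucuronosyl transferases 15 of 66 with 0.17, and cytochrome P450 genes 11 of 73 with 0.38. Collagens had 22 of 119 called higher and 4 lower, with a median of 0.14.

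Some genes were called at both salt levels with fitted values close to each other. On 500 mM NaCl srw-85 had 50.3 and 47.8 CPM in lin-45 embryos, against 2.26 and 1.1 CPM in N2 embryos (log2 fold change 4.83 ± 0.23, adjusted p = 2.12e-05), and Y47H10A.5 had 115 and 94.7 CPM in lin-45 embryos, against 10.5 and 9.40 CPM in N2 embryos (log2 fold change 3.39 ± 0.25, adjusted p = 0.000169). At the same salt level the collagen gene col-98 had 317 and 276 CPM in lin-45 embryos, against 71.8 and 63.8 CPM in N2 embryos (log2 fold change 2.13 ± 0.18, adjusted p = 0.000309). The interaction was not called for these 3 genes (interaction -0.41 ± 0.34, adjusted p = 0.389 for srw-85, interaction 0.11 ± 0.33, adjusted p = 0.83 for Y47H10A.5 and interaction -0.50 ± 0.25, adjusted p = 0.16 for col-98), which does not show that their differences were equal at the 2 salt levels. On high salt the Piwi gene prg-1 had 93.4 and 99.9 CPM in lin-45 embryos, against 44.5 and 44.2 CPM in N2 embryos (log2 fold change 1.12 ± 0.09, adjusted p = 0.00021), and cyp-33C8 had 32 and 32.6 CPM in lin-45 embryos, against 10.1 and 10.3 CPM in N2 embryos (log2 fold change 1.66 ± 0.09, adjusted p = 3.25e-05). For the protease gene cpr-3 the difference grew with salt: it had 80.1 and 69.5 CPM in lin-45 embryos, against 14.8 and 19.4 CPM in N2 embryos on 50 mM (log2 fold change 2.13 ± 0.14, adjusted p = 4.48e-05). On 500 mM it had 17.3 and 16 CPM in lin-45 embryos, against 0.698 and 0.674 CPM in N2 embryos (log2 fold change 4.59 ± 0.19, adjusted p = 1.88e-05). The nuclear receptor gene nhr-12 had 36.3 and 39.7 CPM in lin-45 embryos, against 114 and 108 CPM in N2 embryos on 50 mM (log2 fold change -1.55 ± 0.09, adjusted p = 3.37e-05). On 500 mM this gene had 8.94 and 8.55 CPM in lin-45 embryos, against 84.7 and 75.6 CPM in N2 embryos (log2 fold change -3.20 ± 0.10, adjusted p = 3.08e-06). Interaction contrasts of 2.46 ± 0.25 for cpr-3 (adjusted p = 0.0024) and -1.65 ± 0.13 for nhr-12 (adjusted p = 0.0014) passed.

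The effect of parental salt in N2 embryos on 500 mM NaCl shares no library with the low salt comparison either. Of 3292 genes called there (22.2%), 1983 were also called between lin-45 and N2 on low salt, 615 in the same direction and 1368 in opposite directions. The 1983 made up 60.2% of the parental salt calls, and 54.3% of all tested genes were called on low salt. Calls of the same direction made up 18.7% of the parental salt calls and 7.65% of the 8038. These calls too share the estimate of the spread and are not independent.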

How the data were processed

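Poly-A RNA of whole embryos was sequenced in 10 libraries, 2 in each of 5 groups taken from the labels. Per the submitters' processing notes, the build was ce10 and the tools included RSEM 1.2.15, BWA 0.6.1, DESeq 1.10.1 and bedtools 2.25.0, with no role or order given. The table deposited by the authors holds expected counts per gene; 59.9% of the nonzero values were whole, and they were rounded before testing. The authors also deposited FPKM values and log2 values; the log2 values equalled log2(FPKM + 1) within 5.15e-14, and neither was used in a test. A variance score over the libraries, deposited by the authors, was not used. The deposited coordinates are printed as given, and 8 missing or repeated gene names were replaced by the gene's identifier. Of the identifiers, 44080 were matched in the RefSeq gene table, which served only for names.

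Genes with at least 1 CPM in 2 or more libraries were fitted with edgeR 4.0.16 in R 4.3.3 (TMM factors, quasi-likelihood test, Benjamini-Hochberg adjustment over 14802 genes), with all 5 groups in one model so that they share one estimate of the spread. The fit has 5 residual degrees of freedom. The script was tested on simulated counts. Totals of 22138098 to 34585489 counts per library set the depth; count floors use 3 counts and cover counting error only.

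The members and the 47 gene lists were chosen with earlier results of these data known, so no list is independent evidence. Genes were named by a rule: the RAS, osmolyte and insulin receptor lists, from each list up to 6 called members by p, up to 3 of each family, the 12 highest and 12 lowest fold changes among genes with at least 10 CPM and separate libraries, the 10 with the largest CPM difference, and genes with at most 3 counts in 1 strain. Some genes that the rule names are not reported here. Alternatives were other scalings, filters and fits, DESeq2 1.42.0, a replicate block and leaving out each library.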

Additional observations from a re-analysis of the deposited data

Results flagged for a closer look

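Of 27 genes looked at (lin-45, gpdh-1, gpdh-2 and the extremes of the fold changes), 19 had a strain difference that changed between the salt levels by the interaction contrast of edgeR's quasi-likelihood test with Benjamini-Hochberg adjustment. Over all tested genes this contrast was called for 26.4%. All but the first 3 were chosen for extreme differences on 50 mM, whose values the contrast reuses, so a change towards 0 was favoured by the choice and the count supports nothing. The values below are the lin-45 over N2 log2 difference on 500 mM NaCl minus that on 50 mM NaCl.

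Among genes that were higher in lin-45 embryos on 50 mM NaCl, this contrast was -6.02 for the collagen gene col-149 (adjusted p = 0.00332), -4.98 for the tubulin gene tba-8 (adjusted p = 0.0018), -4.86 for the cadherin gene cdh-7 (adjusted p = 0.00808) and -4.06 for the collagen gene col-176 (adjusted p = 0.00143). On 500 mM NaCl none of these 4 was called. The contrast was -3.29 for Y41C4A.11 (adjusted p = 0.0098), -2.73 for the aspartyl protease gene asp-12, listed as F21F8.4 (adjusted p = 0.00277), and -2.25 for F19B10.13 (adjusted p = 0.0253). For the glycerol synthesis genes it was -2.39 for gpdh-1 (adjusted p = 0.00224), which was higher in lin-45 embryos on 50 mM and lower on 500 mM, and -1.10 for gpdh-2 (adjusted p = 0.00541).

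Among genes that were lower in lin-45 embryos on 50 mM NaCl, the contrast was 2.53 for the warthog gene wrt-2 (adjusted p = 0.0112) and 2.51 for mam-3 (adjusted p = 0.0108). It was 2.47 for W03D8.11 (adjusted p = 0.0423), 2.48 for W08G11.1 (adjusted p = 0.0117), 2.61 for Y64H9A.2 (adjusted p = 0.0101) and 2.66 for R05D8.11 (adjusted p = 0.0117). It was 2.68 for F32B4.8 (adjusted p = 0.00479), 2.76 for F33D4.6 (adjusted p = 0.0139), 3.15 for Y48G8AL.12 (adjusted p = 0.0062) and 5.35 for Y68A4B.3 (adjusted p = 0.00561).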

How the results depend on the processing

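Genes called between lin-45 and N2 embryos on 50 mM NaCl numbered 8038 in the reported fit. They numbered 7806 with RLE factors, 7553 with upper-quartile factors, 7049 with DESeq2, 7105 with no filter on low counts and 7364 with a filter of 5 CPM. Fits of the 4 libraries on 50 mM or of the 8 libraries with parents on 50 mM gave 8010 and 8566. With the replicate block the count was 7592. The replicate differences of the strains on 50 mM NaCl correlated at -0.113 across genes. With a single pair of libraries in each strain, this cannot show whether same-numbered libraries were prepared together. A crossed block, chosen after seeing the data, gave 7681. Leaving out a library gave 5188 to 6961 calls, of which 2879 to 4092 were higher. For the change of the difference with salt these fits gave 787 to 3824 calls, against 3912 with all libraries. On 500 mM NaCl they gave 240 to 390 calls, against 961, and for parental salt 1430 to 4260, against 3292. The lin-45 transcript had a log2 fold change of 0.20 with no filter on low counts (adjusted p = 0.134), and 0.32 to 0.35 in the fits without an N2 library that lost its call. The cause of these changes was not tested, but the fits without a library have fewer samples. Of 128 other named genes that were called, 126 were called in the same direction in all 13 other settings; lin-3 and lea-1 were not. Many of these genes were named for a small p, so their stability was favoured by the choice. The counts of the gene lists were less stable. Of 94 list counts, higher or lower, 40 stayed within 1.5 times the reported count in all 13 settings. With upper-quartile factors 2 intestinal genes and 2 DAF-16 target genes were called lower, against 0 in the reported fit. The log2 fold change of F56A4.5, not called in the reported fit, was -0.21 to 0.68 with a library left out. With 2 libraries a group, small differences and low counts are the least certain.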
